A study of Mus musculus with 14 samples.

Results

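The genes described here are 32 mouse genes of glycolysis, lactate handling and glucose uptake, out of 30284 genes with a transcript in the deposited tables. They were listed by name and function, with no threshold on a measured value but with earlier results of these data known: the glucose carriers, the enzymes from hexokinase to pyruvate kinase, lactate dehydrogenase, the lactate and pyruvate carriers, a kinase that closes pyruvate dehydrogenase, the kinase/phosphatase enzymes that set fructose-2,6-bisphosphate, the transcription factor gene Hif1a, and the first steps of side branches. All 32 passed the filter on low counts and were tested among 15775 genes. RNA was sequenced from regulatory T cells of mouse spleen, sorted as Foxp3+YFP+ cells from animals of the strain labelled C57/B6. Control animals were Tln1wt/wt Foxp3cre/wt, and those labelled talin KO were Tln1fl/fl Foxp3cre/wt, so both groups carried 1 Cre allele driven by Foxp3. Talin, encoded by Tln1, is the adaptor that switches integrins on at the cell membrane. Ages and sexes are not in the labels, and 1 library came from 1 or 2 animals. Sample titles carry a first and a second number. The 2 samples with the same first number were summed to 1 unit, which left 4 control and 3 talin KO units.

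Glycolysis splits glucose into pyruvate in the cytosol and yields ATP fast but sparingly. Pyruvate then either enters mitochondria through the carrier of Mpc1 and Mpc2, or is reduced to lactate by lactate dehydrogenase and exported. Effector T cells switch to this route on activation, whereas regulatory T cells are known to lean more on oxidation of fatty acids and pyruvate; the oxygen-sensitive transcription factor Hif-1alpha, with Myc and mTOR, drives many of the glycolytic genes. Hexokinase, phosphofructokinase and pyruvate kinase catalyse the steps that run in 1 direction and are the points of control.

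Depth differed between the groups. Control units 1 to 4 held 12851425, 20863157, 39214264 and 13458684 estimated reads, while talin KO units 1 to 3 held 44524768, 38811489 and 56109143. The total Tln1 signal did not check the labels: it was 634, 543, 847 and 649 CPM (read counts brought to a common library size, with TMM scaling) in the control units and 788, 901 and 1014 CPM in the talin KO units (edgeR adjusted p = 0.126). The floxed exons are not named in the labels, and a transcript that lacks a few exons is still counted. Every direction given here therefore rests on the label, and "talin KO" means a unit labelled so. Foxp3 was at 419 ± 71.0 CPM (SD, n = 4) and 429 ± 76.1 CPM (SD, n = 3). The 10 markers of regulatory T cells, all of them detected, summed to between 4320 and 5031 CPM across the control units and between 2688 and 3602 CPM in the talin KO units. Of these, Il2ra, Izumo1r, Tnfrsf4 and Ikzf2 fell; with an offset that removes the GC and length trend of each unit, Ikzf2 was at -0.52 in place of -0.92 and no longer passed (adjusted p = 0.0536), while Cd3e and Tnfrsf18 passed as lower, 5 of 10 in all. Markers of other cells were higher in the talin KO units: 11 of 12 neutrophil markers rose, from a summed 2.00 to 15.8 CPM to 268 to 1622 CPM, with talin KO unit 3 highest. B cell markers (6 of 10 rose) summed to 31.7 to 94.5 CPM against 178 to 391 CPM. Monocyte markers (3 of 12 rose) summed to 63.6 to 192 CPM against 269 to 797 CPM, and dendritic cell markers (4 of 8 rose) to 6.50 to 22.6 CPM against 54.9 to 98.9 CPM. For cytotoxic lymphocytes (4 of 8 rose) the sums were 33.0 to 41.4 CPM against 57.8 to 101 CPM, and for platelets (2 of 3 tested rose) 3.89 to 5.82 CPM against 13.0 to 20.2 CPM. None of 11 erythroid markers passed the edgeR test, yet their sum was 7.34 to 96.2 CPM across the control units and 409, 162 and 4007 CPM in talin KO units 1 to 3. With the same offset, 11 neutrophil, 4 B cell, 4 dendritic cell, 3 cytotoxic lymphocyte, 1 platelet and 0 monocyte markers passed as higher. In bulk RNA, a different share of a cell type and a different amount of RNA per cell cannot be told apart. The plot of marker lists by unit shows these sums beside Hk3.

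**Figure D1:**
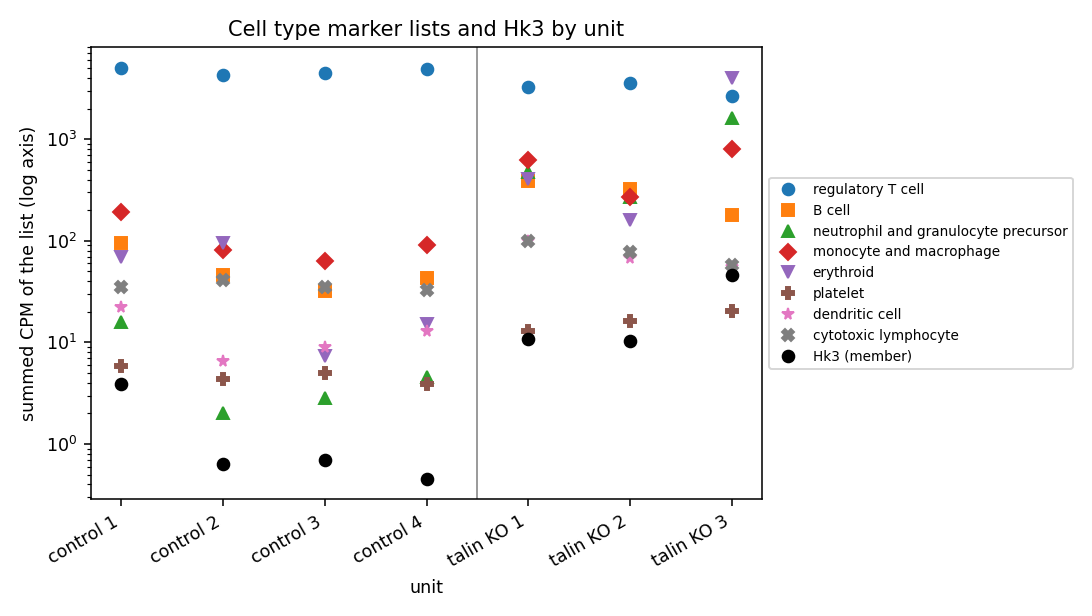
Summed CPM of each cell type marker list in each unit, on a log axis, with the member gene Hk3 in black; the vertical line separates the 4 control from the 3 talin KO units. Neutrophil and erythroid sums are highest in talin KO unit 3 (1622 and 4007 CPM), and Hk3 is at 3.93 CPM in control unit 1, above the other control units.

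The promoters of the 4 members that passed the test are shown first, since these members carry the differences reported here. Each window runs from 250 bases before to 50 bases after the annotated start, 5′ to 3′ on the strand of the gene, from RefSeq on GRCm38.p6. Capitals mark the core of the hypoxia response element, ACGTG or GCGTG on either strand (CACGT or CACGC when read on the given strand), the letters that Hif-1 binds. The Hk2 window is chr6:82774405-82774704 (minus strand), that of Pfkl chr10:78009758-78010057 (minus), that of Pfkfb4 chr9:108991652-108991951 (plus) and that of Hif1a chr12:73907617-73907916 (plus).
Hk2: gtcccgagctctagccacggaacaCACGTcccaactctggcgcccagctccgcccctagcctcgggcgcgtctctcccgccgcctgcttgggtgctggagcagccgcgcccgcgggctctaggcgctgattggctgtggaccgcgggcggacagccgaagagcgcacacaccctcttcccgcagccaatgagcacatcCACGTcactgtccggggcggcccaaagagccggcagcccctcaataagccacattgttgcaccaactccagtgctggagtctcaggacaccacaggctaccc
Pfkl: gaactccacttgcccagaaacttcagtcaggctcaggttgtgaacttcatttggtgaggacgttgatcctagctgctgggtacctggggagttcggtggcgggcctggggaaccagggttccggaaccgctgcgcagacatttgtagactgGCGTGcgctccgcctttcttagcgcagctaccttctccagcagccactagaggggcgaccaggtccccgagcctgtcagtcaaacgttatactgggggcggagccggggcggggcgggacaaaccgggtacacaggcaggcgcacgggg
Pfkfb4: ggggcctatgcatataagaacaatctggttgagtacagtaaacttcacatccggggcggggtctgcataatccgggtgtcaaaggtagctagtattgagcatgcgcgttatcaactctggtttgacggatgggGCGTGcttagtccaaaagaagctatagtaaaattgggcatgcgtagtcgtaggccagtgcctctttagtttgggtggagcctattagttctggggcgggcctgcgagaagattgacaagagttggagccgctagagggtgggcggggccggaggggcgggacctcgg
Hif1a: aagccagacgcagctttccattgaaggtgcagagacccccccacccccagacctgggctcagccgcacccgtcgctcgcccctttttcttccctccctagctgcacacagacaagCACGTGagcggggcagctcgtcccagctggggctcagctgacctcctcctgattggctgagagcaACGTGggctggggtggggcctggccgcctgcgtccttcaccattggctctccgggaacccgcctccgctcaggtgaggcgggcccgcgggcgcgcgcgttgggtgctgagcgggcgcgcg
Hk2 has 2 such cores, Pfkl and Pfkfb4 have 1 each, and Hif1a has 3, of which 2 overlap in a palindrome. A promoter window was matched by symbol for 31 of the 32 members, 48 windows in all, some of them overlapping. At least 1 core lay in 38 of the 48 windows (79.2%), against 43.8% of the 32851 windows of all genes. Member windows were also richer in GC, with a median of 60.8% against 52.7%. The E-box CACGTG, a palindrome bound by Myc and related factors that contains a core on both strands, lay in 12.5% of member windows and 7.15% of all. These are matches of letters in fixed windows only, and binding was not measured.

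Of the 32 members, 4 changed past an adjusted p of 0.05 (12.5%), against 13.6% of all genes tested. Of these, 3 were higher in the talin KO units (9.38%, against 7.07% of all genes): Hk2, Pfkl and Pfkfb4. The other was lower (3.12%, against 6.52%): Hif1a. The share called among these genes was thus near that of all genes. The median log2 fold change was 0.28 over the members and 0.06 over all genes tested. Positive values were found for 25 members (78.1%, against 54.2% of all genes) and negative ones for 7. Aldoc, at 0.00 after rounding, is counted as positive. In CPM, all 3 talin KO units lay above all 4 control units for 10 members (31.2%, against 16.7% of all genes), and below them for 3 members (9.38%, against 14.1%). In TPM (read estimates scaled by transcript length and by depth), Hk2, Hk3, Tpi1 and Pfkfb4 stayed above and Hif1a below. The groups overlapped in TPM for Pfkl, Pfkm, Gapdh, Eno3, G6pdx and Pgd, and for Pdk1 and Mpc1. The shares over all genes were counted in CPM only. Talin KO unit 3 was the highest of the 7 units for 19 members (59.4%), against 25.9% of all genes, as the plot of members by unit shows. A member's GC content also went with its direction: 21 of the 22 members with at least 50% GC had a positive fold change. Over all genes the median log2 fold change was 0.25 at 50 to 60% GC and -0.35 below 45% GC. With the GC and length offset, the members' median was 0.12 against 0.03 over all genes, no member was called higher and Hif1a was still lower. Of the members, 21 then had a positive and 11 a negative value.

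**Figure D2:**
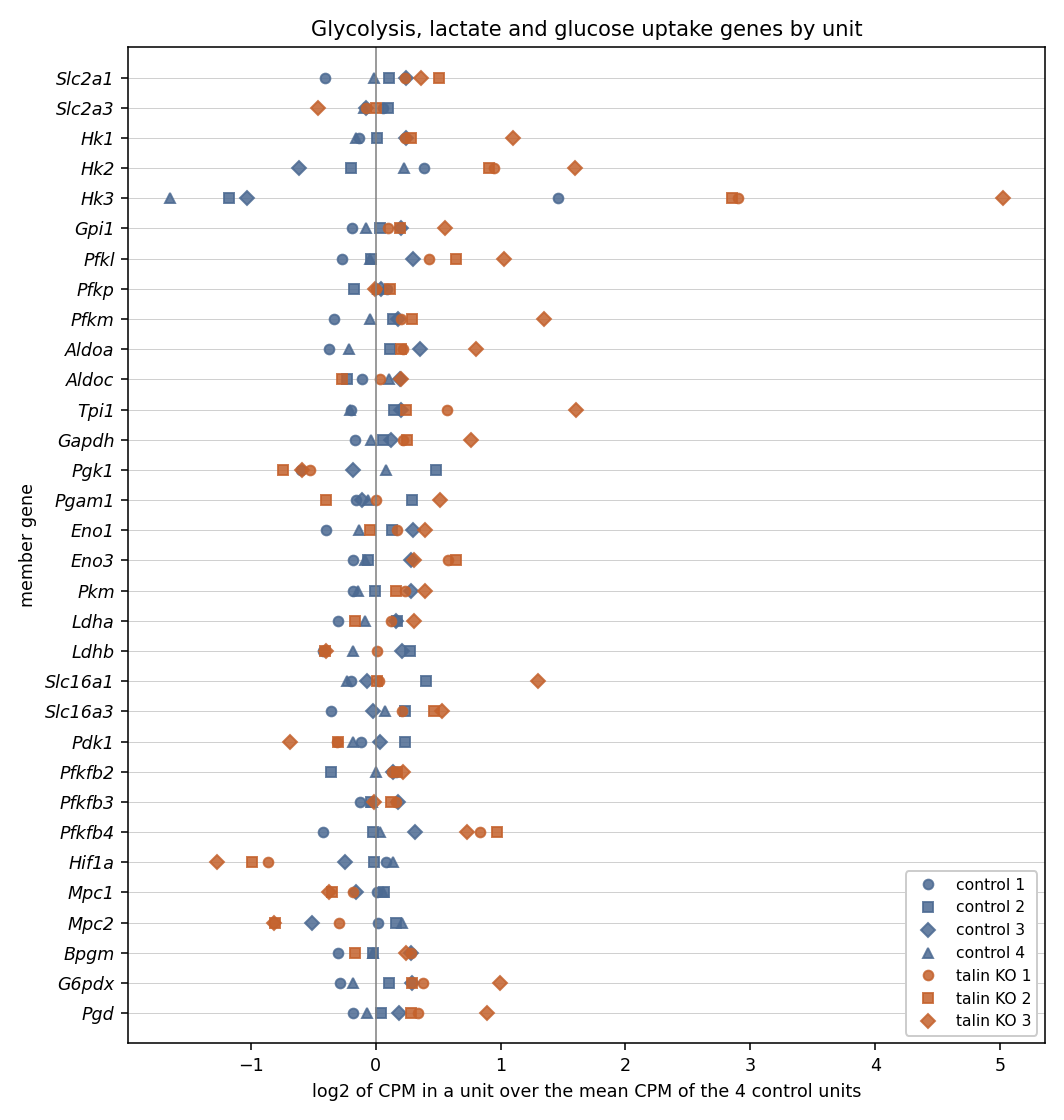
Each point is 1 unit, placed by the log2 ratio of its CPM to the mean of the 4 control units (blue, control; orange, talin KO; marker shapes give the unit number). Talin KO unit 3, the orange diamond, lies at the far right for 19 of the 32 genes, while all 3 orange points of Hif1a lie left of the control units.

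Glucose enters T cells through Slc2a1 (Glut1, the carrier that rises on activation) and Slc2a3 (Glut3, a carrier of higher affinity). Slc2a1 (chromosome 4, 119108711 to 119137983, plus strand) was at 25.6, 36.5, 40.2 and 33.6 CPM across the control units and at 39.9, 48.3 and 43.6 CPM in the talin KO units. The ranges overlapped in control unit 3, and Slc2a1 missed the threshold at a log2 fold change of 0.37 ± 0.17 (SE; adjusted p = 0.153). Slc2a3 was at 142, 146, 130 and 128 CPM against 130, 137 and 99.0 CPM, with overlap and a log2 fold change of -0.16 ± 0.14. The sign of the Slc2a3 value turned with an effective-length offset (0.40). Per length, Slc2a3 was the more abundant of the pair in every unit: Slc2a1 made up 25.5 ± 4.64% of their summed TPM in the control and 26.8 ± 5.17% in the talin KO units.

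Hexokinase traps glucose as glucose-6-phosphate, and reads of 3 of its genes were detected in the sorted samples. Hk2 encodes the inducible isozyme of activated T cells and muscle, which binds mitochondria. Hk2 (chromosome 6, 82725025 to 82774454, minus strand) was at 7.24, 4.84, 3.62 and 6.48 CPM across the control units and at 10.7, 10.4 and 16.8 CPM in the talin KO units. All talin KO units were above all control units, with talin KO unit 3 highest. Hk2 rose 2.29-fold, a log2 fold change of 1.20 ± 0.31 (SE; edgeR adjusted p = 0.0313). The call held in 2 of the 7 fits that leave out 1 unit and ended without control unit 2, 3 or 4 or talin KO unit 2 or 3, where the adjusted p was 0.0517 to 0.111.

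Hk1, the housekeeping isozyme, was the main hexokinase transcript: it was at 105, 116, 136 and 103 CPM across the control units and 135, 140 and 246 CPM in the talin KO units. Talin KO units 1 and 2 lay at the level of control unit 3, and only talin KO unit 3 stood apart. The log2 fold change of 0.59 ± 0.21 was not past the threshold (adjusted p = 0.0876), and it was 0.26 without talin KO unit 3. Hk3 is the hexokinase of granulocytes and monocytes. It was at 3.93, 0.635, 0.699 and 0.457 CPM across the control units and at 10.7, 10.4 and 46.6 CPM in the talin KO units. The groups did not overlap, the log2 fold change was 4.03 ± 1.02 (SE) and the adjusted p was 0.0528. The units high in Hk3 were those high in neutrophil markers, whose sum was 15.8, 2.00, 2.85 and 4.57 CPM in control units 1 to 4 and 479, 268 and 1622 CPM in talin KO units 1 to 3. The part of those cells in the Hk3 value was not tested. With both control unit 1 and talin KO unit 3 left out, an alternative chosen after seeing the data, Hk3 was called (4.10, adjusted p = 0.000142) and Hk2 was not (adjusted p = 0.0591).

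As a share of summed hexokinase TPM, Hk1 held 87.5, 92.6, 95.9 and 89.6% in the control units and 84.1, 82.5 and 75.7% in the talin KO units. The groups did not overlap. The difference of -10.7 percentage points had an exact permutation p of 0.0571, made two-sided by doubling the one-sided value. That is the smallest this doubled test allows for 4 against 3 units. It was 0.229 after Benjamini-Hochberg adjustment over the 10 shares compared. The share of Hk2 was 6.46 ± 2.82% and 6.69 ± 1.42%. The plot of isozyme shares shows that the remainder was Hk3.

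**Figure D3:**
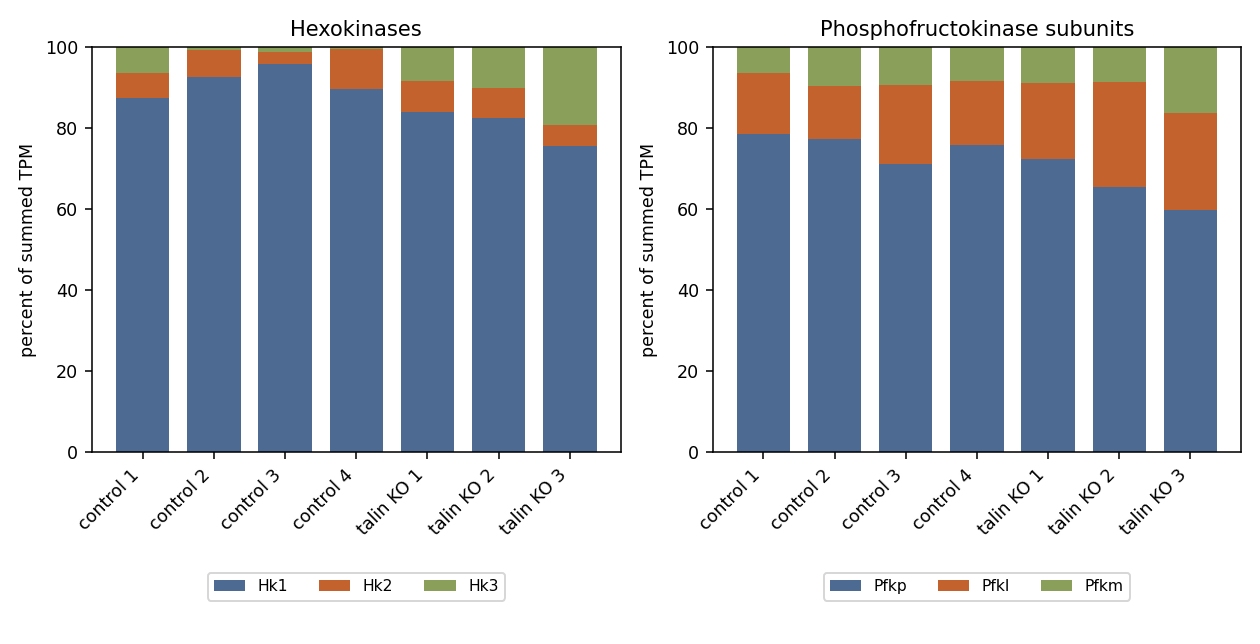
Stacked bars give the percent of summed TPM held by each hexokinase gene (left) and each phosphofructokinase subunit gene (right) in each unit. Hk1 is at 87.5% or more in the control units and at 75.7% in talin KO unit 3, and Pfkp at 71.3% or more and at 59.7%.

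Gpi1, which turns glucose-6-phosphate into fructose-6-phosphate, was at 290 ± 34.0 CPM in the control and 357 ± 61.6 CPM in the talin KO units, with overlap (log2 fold change 0.30 ± 0.16, adjusted p = 0.213). Phosphofructokinase, the committed step, is a tetramer of liver (Pfkl), platelet (Pfkp) and muscle (Pfkm) subunits. Pfkl (chromosome 10, 77986947 to 78010083, minus strand) was at 28.2, 33.2, 41.8 and 32.9 CPM across the control units and at 45.7, 53.2 and 69.4 CPM in the talin KO units. The groups did not overlap in CPM, although control unit 3 and talin KO unit 1 were close. In TPM they overlapped, with control unit 3 at 17.55 and talin KO unit 1 at 15.31. The coding transcript Pfkl-201 also overlapped, at 10.48 and 9.80 TPM in these units, and did not pass (limma adjusted p = 0.25). Pfkl rose 1.65-fold, a log2 fold change of 0.72 ± 0.18 (SE; edgeR adjusted p = 0.0286). The call held in 2 of the 7 fits that leave out 1 unit, and the adjusted p was 0.0545 to 0.0989 in the other 5. Its GC content is 57.0%, and with the GC and length offset the log2 fold change was 0.36 (adjusted p = 0.102).

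Pfkp, the main subunit transcript, stayed between 111 and 135 CPM over all 7 units, with a log2 fold change of 0.04 ± 0.12. Pfkm was at 16.3, 22.6, 23.2 and 19.9 CPM across the control units and at 23.6, 25.0 and 52.0 CPM in the talin KO units, narrowly without overlap. The muscle subunit's log2 fold change of 0.71 ± 0.28 (adjusted p = 0.112) became 0.24 without talin KO unit 3. Per length, Pfkp held 75.8 ± 3.21% of the 3 subunits' TPM in the control units and 65.9 ± 6.35% in the talin KO units, and Pfkl 15.8 ± 2.74% and 22.9 ± 3.64%. The exact permutation p was 0.114 for each share (0.229 adjusted). With 4 against 3 units this test cannot go below 0.0571, so it could not call either share.

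Fructose-2,6-bisphosphate is the strongest activator of phosphofructokinase, and the Pfkfb enzymes make and remove it. Pfkfb4 (chromosome 9, 108991778 to 109032228, plus strand) was at 6.06, 8.01, 10.1 and 8.31 CPM across the control units and at 14.5, 15.9 and 13.4 CPM in the talin KO units. The groups did not overlap, and here talin KO unit 3 was the lowest of its group. Pfkfb4 rose 1.80-fold, a log2 fold change of 0.84 ± 0.23 (SE; edgeR adjusted p = 0.0385). Leaving out control unit 3 kept the call (adjusted p = 0.0376), and each of the other 6 fits without 1 unit ended it (0.0642 to 0.105). Without talin KO unit 3 the value was 0.90. Pfkfb3, the form with the highest kinase activity and the most abundant of the family here, was at 71.2 ± 6.47 CPM and 75.9 ± 4.71 CPM, and Pfkfb2 at 23.6 ± 3.68 CPM and 26.6 ± 0.824 CPM. Their log2 fold changes were 0.09 ± 0.12 and 0.17 ± 0.17, neither past the test. The plot of the 4 changed members gives all units.

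**Figure D4:**
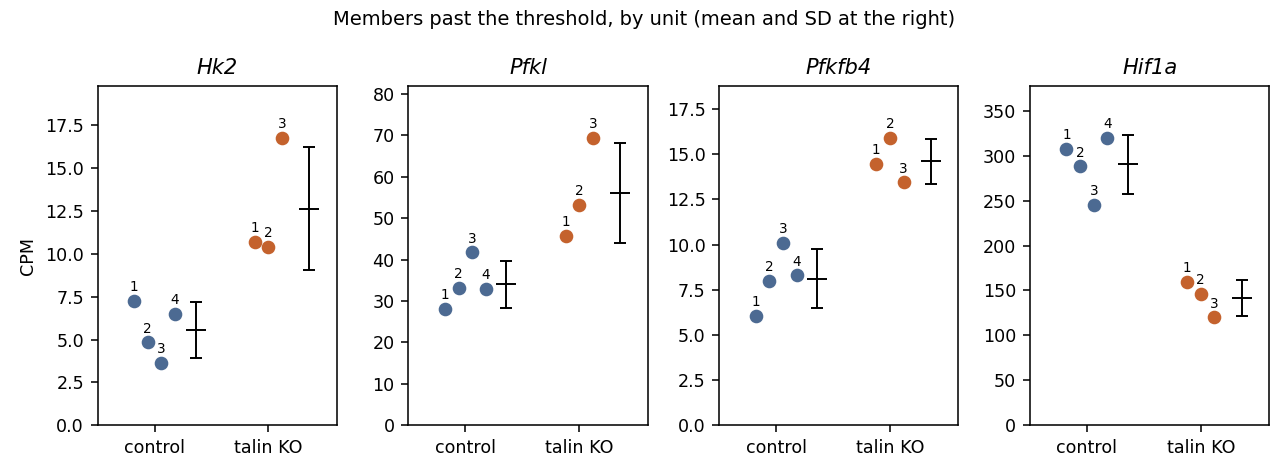
CPM of the 4 members past an adjusted p of 0.05 in each unit (numbered points; the bar at the right of a group is the mean with the SD, and each axis starts at 0). The groups do not overlap in any of the 4 panels, and talin KO unit 3 is the highest unit for Hk2 and Pfkl (16.8 and 69.4 CPM) but not for Pfkfb4.

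Among the enzymes that split and oxidise the sugar phosphates, Gapdh and Aldoa have some of the most abundant transcripts of the set, whereas Tpi1 and Aldoc do not. Aldolase cleaves fructose-1,6-bisphosphate. Aldoa was at 116, 163, 192 and 130 CPM across the control units and 175, 173 and 262 CPM in the talin KO units, with overlap (log2 fold change 0.43 ± 0.21, adjusted p = 0.176). The brain form Aldoc was at 2.12 ± 0.283 and 2.13 ± 0.344 CPM, a log2 fold change of 0.00 ± 0.35. Tpi1, which interconverts the triose phosphates, was at 25.6, 32.3, 33.6 and 25.4 CPM against 43.5, 34.6 and 88.7 CPM. The Tpi1 groups did not overlap by a narrow margin between control unit 3 and talin KO unit 2. The log2 fold change of 0.93 ± 0.31 had an adjusted p of 0.0821, and without talin KO unit 3 it was 0.42.

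Gapdh, the enzyme that oxidises glyceraldehyde-3-phosphate, was at 180, 210, 219 and 196 CPM across the control units and at 235, 239 and 341 CPM in the talin KO units. The groups did not overlap, but the log2 fold change of 0.43 ± 0.16 missed the threshold (adjusted p = 0.0905). The level itself is uncertain, because 28.1% of the 31-base words of the Gapdh transcripts occur in other genes. The 6 protein-coding Gapdh transcripts held between 0.123% and 2.52% of the gene's estimated reads in 6 units and 14.6% in talin KO unit 3. The remaining reads lay in 7 transcripts not annotated as coding. Meanwhile 3 processed pseudogenes, Gm10359, Gm12671 and Gm7336, named after their values were seen, held the same estimate as each other in every unit, from 72.5 CPM in control unit 4 to 188 CPM in talin KO unit 3. Summed with 82 genes that share at least 5% of its words, Gapdh was at 457, 531, 566 and 452 CPM against 597, 604 and 943 CPM, with a log2 fold change of 0.51 ± 0.19 (adjusted p = 0.094).

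Pgk1 makes the first ATP of the pathway. It was at 56.9, 120, 76.0 and 90.9 CPM across the control units and at 59.6, 51.3 and 57.2 CPM in the talin KO units. Control unit 1 lay among the talin KO units, and the log2 fold change of -0.62 ± 0.22 was not past the threshold (adjusted p = 0.0889). Of its 31-base words, 54.7% occur in other genes, and 2 processed pseudogenes, Pgk1-rs7 and Gm5537, together held 60.2, 51.4, 68.5 and 36.3 CPM across the control units and 78.6, 52.3 and 82.9 CPM in the talin KO units. With these added, Pgk1 was at 117, 172, 145 and 127 CPM against 138, 104 and 140 CPM, and the log2 fold change was -0.14 ± 0.17 (adjusted p = 0.604). The size of the Pgk1 difference thus depended on how reads were split between the gene and its copies.

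Pgam1, the phosphoglycerate mutase, was at 46.6 ± 7.02 and 49.5 ± 15.8 CPM (log2 fold change 0.09 ± 0.21, and -0.18 without talin KO unit 3). Bpgm, which makes 2,3-bisphosphoglycerate, was at 16.5 ± 2.73 and 18.1 ± 2.97 CPM. Eno1, the enolase of most tissues, was at 262, 379, 426 and 314 CPM across the control units and 389, 336 and 453 CPM in the talin KO units, with overlap (0.18 ± 0.18, adjusted p = 0.526, and -0.12 with the GC and length offset). Eno3, the muscle enolase, was at 25.7, 27.9, 35.4 and 27.4 CPM against 43.5, 45.3 and 36.1 CPM. The Eno3 groups did not overlap, with talin KO unit 3 close to control unit 3, and the log2 fold change of 0.51 ± 0.16 narrowly missed the threshold (adjusted p = 0.0525).

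Pkm makes pyruvate and is spliced to either of a pair of exons, giving the M1 form of resting muscle and brain or the M2 form of proliferating cells. Both exons have 167 bases and are identical at 103 positions (61.7%). They lie on the plus strand of chromosome 9 in GRCm38, the first at chr9:59675029-59675195 and the second at chr9:59675568-59675734, and both are printed as read from the GENCODE transcripts because they are what separates the forms in the read assignment.
M1 exon: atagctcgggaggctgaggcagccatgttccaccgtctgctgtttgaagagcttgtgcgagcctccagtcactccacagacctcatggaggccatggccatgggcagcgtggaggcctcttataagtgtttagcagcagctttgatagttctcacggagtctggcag
M2 exon: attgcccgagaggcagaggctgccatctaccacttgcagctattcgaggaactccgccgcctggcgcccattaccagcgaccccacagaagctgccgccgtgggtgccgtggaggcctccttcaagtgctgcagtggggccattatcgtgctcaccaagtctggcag
The transcript with the M2 exon held 81.4, 92.6, 87.3 and 81.0% of the TPM of these 2 transcripts in the control units and 87.2, 87.1 and 90.4% in the talin KO units. The means were 85.6 ± 5.50% and 88.2 ± 1.88%, and the ranges overlapped. The gene total was at 298, 336, 410 and 306 CPM against 397, 378 and 444 CPM (log2 fold change 0.27 ± 0.15, adjusted p = 0.241), and -0.07 with the GC and length offset. The Pkm total thus did not pass the test, and the share of M2 was not tested.

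Lactate dehydrogenase tetramers mix the A subunit, favouring lactate, with the B subunit, favouring pyruvate. Ldha was at 234, 325, 323 and 271 CPM across the control units and 314, 257 and 356 CPM in the talin KO units, a log2 fold change of 0.10 ± 0.17. Ldhb was at 23.0, 37.4, 35.7 and 27.2 CPM against 30.99, 23.3 and 23.4 CPM, a log2 fold change of -0.25 ± 0.20. Both overlapped between groups. Ldha held 88.7 ± 0.932% of the pair's TPM in the control units and 90.8 ± 1.73% in the talin KO units (exact permutation p = 0.114, 0.229 adjusted). Lactate leaves cells through Slc16a1 (Mct1) and the high-capacity exporter Slc16a3 (Mct4). Slc16a1 was at 29.8 ± 6.48 CPM across the control units and at 30.4, 30.1 and 73.2 CPM in the talin KO units, and only talin KO unit 3 was above control unit 2. The log2 fold change of 0.58 ± 0.34 was 0.02 without that unit, and -0.04 without it and control unit 1. Slc16a3 was at 5.93 ± 0.981 and 7.87 ± 0.891 CPM (0.41 ± 0.26, edgeR adjusted p = 0.299). Per length, Slc16a1 held 66.9 ± 8.47% of the summed TPM of these 2 carriers in the control units and 62.9 ± 13.8% in the talin KO units. The Slc16a1 share was 49.1% in talin KO unit 2.

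The genes at the mitochondrial door had negative values. Pdk1, the kinase that shuts pyruvate dehydrogenase, was at 196, 251, 217 and 187 CPM across the control units and at 172, 173 and 132 CPM in the talin KO units. The Pdk1 groups did not overlap in CPM, and the log2 fold change was -0.42 ± 0.15 (edgeR adjusted p = 0.0878). In TPM they did overlap, at 88.1 ± 14.9 against 85.2 ± 22.7, with talin KO unit 2 the highest of all units (108.6 TPM). Over the 23 alternatives the log2 fold change ranged from -0.49 to -0.01. The pyruvate carrier subunit Mpc1 was at 32.6 ± 2.32 and 26.5 ± 1.96 CPM without overlap (-0.30 ± 0.14, adjusted p = 0.162). Its partner Mpc2 was at 24.5, 27.2, 17.1 and 28.1 CPM against 19.8, 13.8 and 13.8 CPM (-0.61 ± 0.23, adjusted p = 0.0933), where control unit 3 lay among the talin KO units. None of the 3 passed the test. They have 43.7% to 47.1% GC, and with the GC and length offset the values were -0.34, -0.04 and -0.30.

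Hif1a encodes the oxygen-regulated subunit of the factor that drives many genes of this set, and is itself mainly controlled at the protein level. Hif1a (ENSMUSG00000021109, chromosome 12, 73901375 to 73947530, plus strand) was at 308, 288, 245 and 320 CPM across the control units and at 159, 146 and 120 CPM in the talin KO units. All 4 control units were above all 3 talin KO units. Hif1a fell 2.05-fold, a log2 fold change of -1.03 ± 0.15 (SE; edgeR adjusted p = 0.00378). The call was kept in all 7 fits without 1 unit and in each of the 23 alternatives run, with values from -1.13 to -0.56 and adjusted p of at most 0.0486. Hif1a has the lowest GC content of the 32 members, 39.9%, and genes with 38 to 42% GC had a median log2 fold change of -0.45. With the GC and length offset it was -0.56 (adjusted p = 0.00789). No 31-base word of Hif1a occurs in another gene. The 2 long coding transcripts had similar values: Hif1a-202 was at 34.2, 32.02, 32.9 and 29.8 TPM against 16.4, 13.7 and 12.8 TPM, and the longer one at 23.6 ± 4.19 against 11.5 ± 3.41 TPM.

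**Figure D5:**
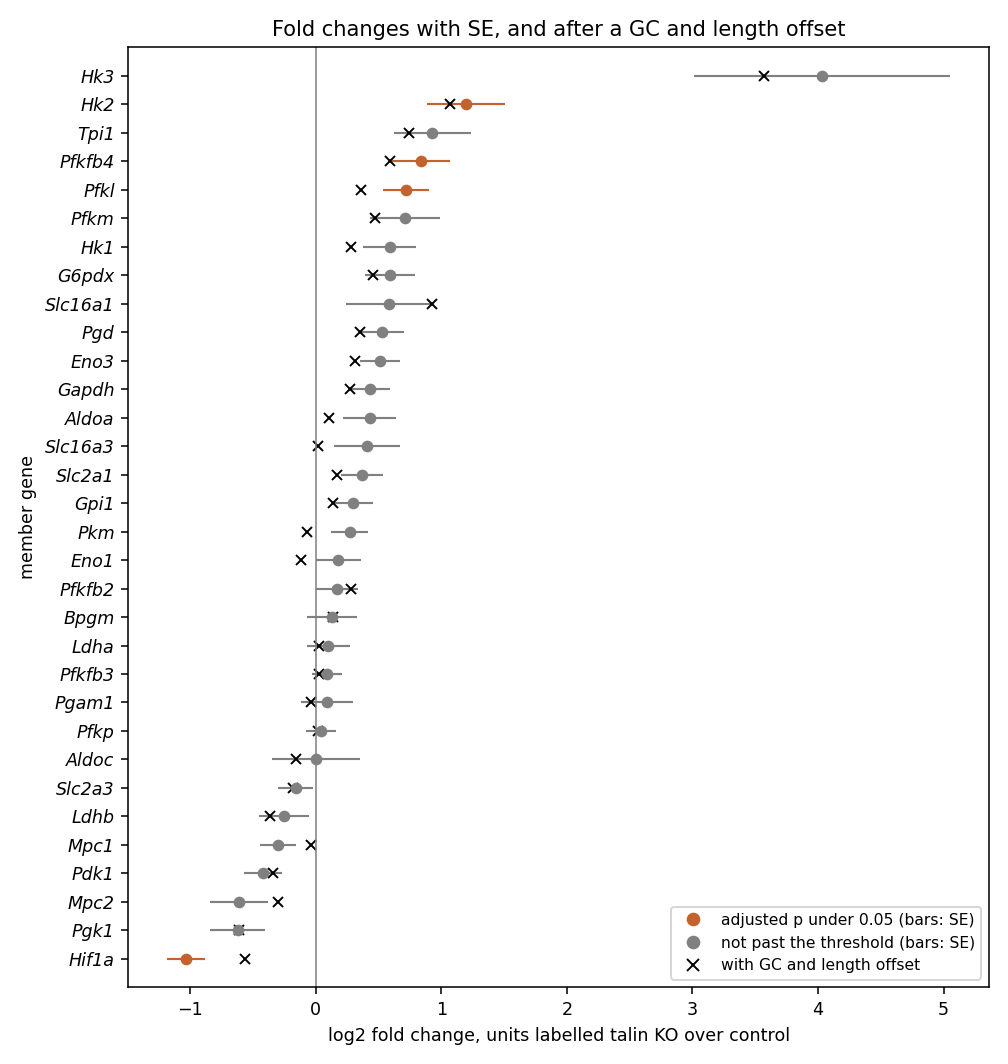
Log2 fold change of each member (point) with its SE (bar), orange where the adjusted p was under 0.05, and the value with the GC and length offset (cross). Hif1a is lowest at -1.03, or -0.56 with the offset, and Hk3 highest at 4.03 with the widest bar.

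The oxidative pentose phosphate branch draws glucose-6-phosphate away to make NADPH. G6pdx, its first enzyme, was at 30.3, 39.7, 45.1 and 32.6 CPM across the control units and at 47.9, 45.2 and 73.7 CPM in the talin KO units, and Pgd, its NADPH-yielding partner, at 45.1, 52.7, 58.2 and 48.9 CPM against 64.7, 62.3 and 95.2 CPM. Neither gene overlapped between groups, though G6pdx differed by less than 1 CPM between control unit 3 and talin KO unit 2. The log2 fold changes were 0.59 ± 0.20 (adjusted p = 0.0746) and 0.53 ± 0.17 (adjusted p = 0.0603). Without talin KO unit 3 they were 0.33 and 0.31. A further 6 genes were of the pentose phosphate pathway at large, including its non-oxidative branch. Of these, Taldo1, the transaldolase of the non-oxidative branch, rose 1.64-fold (log2 fold change 0.72 ± 0.19, edgeR adjusted p = 0.0329). Tkt, the transketolase, was at 135 ± 26.2 CPM against 187, 195 and 424 CPM (1.00 ± 0.31, adjusted p = 0.0685), Rpe had -0.51 ± 0.16 and Pgls 0.46 ± 0.17. With the GC and length offset Taldo1 still passed (0.54, adjusted p = 0.0413), while Rpe and Pgls were at -0.01 and 0.07.

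At transcript level, 120 of the members' 221 transcripts reached a mean of 1 TPM, and 4 of them passed the limma test (3.33%, against 1.96% of all 34064 transcripts tested). Hif1a-202 differed by -1.13 ± 0.20 (SE) in log2(TPM + 1), with an adjusted p of 0.0394. Gapdh-208, a processed transcript of 483 bases, was at 113, 89.7, 58.2 and 98.9 TPM against 22.7, 22.7 and 7.93 TPM (-2.37 ± 0.41, adjusted p = 0.0376), opposite in sign to the Gapdh gene total. Slc2a3-203, annotated as a target of nonsense-mediated decay, was at 0, 0, 2.63 and 0.493 TPM against 5.63, 8.89 and 7.78 TPM (2.45 ± 0.47, adjusted p = 0.0495). Mpc1-203 was at 0, 0, 3.58 and 0 TPM against 13.8, 6.91 and 15.1 TPM (3.08 ± 0.59, adjusted p = 0.0498), while a longer coding transcript of Mpc1 was at 11.7, 2.27, 3.87 and 22.3 TPM against 0.273, 0.00161 and 0 TPM (-2.93 ± 0.65, adjusted p = 0.0665). For Slc2a3-203 and Mpc1-203, control unit 3, the deepest control unit, was the control nearest to the talin KO units. Hif1a-202 passed in 0 of the 7 fits that leave out 1 unit, and each of the other 3 in 1 of 7. Estimates for short transcripts that overlap others are split by a model.

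Per length, the highest members in the control units were Gapdh (465 ± 61.2 TPM), Eno1 (363 ± 132 TPM), Ldha (194 ± 32.7 TPM), Pkm (130 ± 29.01 TPM), Gpi1 (128 ± 25.9 TPM) and Aldoa (112 ± 34.5 TPM). Within each control unit Gapdh was above Eno1, though barely so in control unit 3 (552.2 and 551.9 TPM). Aldoa was below both Pkm and Gpi1 in each control unit, while the order of Pkm and Gpi1 changed between units. At the bottom were Hk3 (0.738 ± 0.963 TPM), Hk2 (2.11 ± 0.693 TPM), Pfkfb4 (2.23 ± 0.585 TPM), Aldoc (2.88 ± 0.815 TPM) and Slc16a3 (3.02 ± 0.975 TPM). Neighbours in that order overlapped within 1 SD. Hk3 was the lowest of these in control units 2 to 4. In control unit 1 it was at 2.166 TPM, above Slc16a3 (1.788 TPM), Hk2 (2.075 TPM) and Pfkfb4 (1.656 TPM) but below Aldoc (3.609 TPM). The members called higher thus included 2 of the least abundant transcripts of the set, with 85 to 947 reads per unit for Hk2 and 77 to 759 for Pfkfb4.

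Lists of genes around the pathway are read against the 13.6% of all genes called. None of 14 tested further glycolysis genes passed edgeR, and Pklr, the pyruvate kinase of liver and red cells, was at 2.52, 3.52, 0.0999 and 0.229 CPM across the control units and 9.03, 8.34 and 69.5 CPM in the talin KO units (4.21 ± 1.48, adjusted p = 0.12), highest in the unit with the highest erythroid sum. The part of red cells in that value was not tested. Pgam2, the muscle mutase, had 0.80 ± 0.30 (adjusted p = 0.0999), and 0.51 with the GC and length offset. None of 12 genes of the pyruvate dehydrogenase complex and its regulators passed, with a median log2 fold change of -0.06. Pcx, Pdp1, Pdha1 and Dld had the smallest adjusted p, from 0.112 to 0.156. Their log2 fold changes were 1.49, -0.59, -0.32 and -0.32, and 1.04, -0.26, -0.13 and 0.17 with the offset. Of 7 other sugar and monocarboxylate carriers and chaperones, Slc2a6, of the glucose carrier family, rose 4.43-fold from 0.808 ± 0.415 to 3.52 ± 0.609 CPM (2.15 ± 0.45, adjusted p = 0.0151). The GC and length offset ended that call (1.75, adjusted p = 0.0518). Bsg and Emb, the chaperones of the lactate carriers, had 0.47 ± 0.26 and -0.22 ± 0.14, and 0.22 and 0.03 with the offset. Among 20 HIF regulators and targets outside glycolysis, Vegfa, the angiogenic factor, rose 3.27-fold from 1.52 ± 0.715 to 4.99 ± 2.11 CPM (1.71 ± 0.45, adjusted p = 0.0358), and was at 1.63 with the offset (adjusted p = 0.0605). No other gene of that list passed without the offset, and its median was -0.08. Ddit4, an mTOR inhibitor induced by hypoxia, had -1.29 ± 0.40 (adjusted p = 0.0771) and passed as lower with the offset (-1.62, adjusted p = 0.0216). Egln2 and Ero1l had 0.45 ± 0.16 and -0.38 ± 0.14, and 0.07 and 0.00 with the offset.

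With both control unit 1 and talin KO unit 3 left out, 1327 genes were called, among them 1 member higher (Hk3) and 2 lower: Hif1a (-0.90, adjusted p = 0.00887) and Pgk1 (-0.78, adjusted p = 0.037). The members' median log2 fold change was then 0.10 against 0.05 over all genes.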

How the data were processed

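Sorted splenic regulatory T cells gave 14 deposited tables, 1 per sample, from kallisto and a GRCm38 transcriptome, per the submitters' processing notes; the sources used here give neither its version nor the annotation. Estimated counts and TPM were deposited by the authors, with effective lengths in other columns. The kit did not keep strand, per the labels' protocols. Estimated counts were summed per gene with GENCODE M21 (2079 of 88198 transcripts, 1.17% to 1.28% of reads, had no gene) and over the 2 samples of a first title number (chi-square per degree of freedom 1.44 to 1.90 within a unit, 12.8 to 202 between units), then rounded. Nothing ties units to separate animals, so p-values measure the spread between units, which can be technical.

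Genes were tested with edgeR 4.0.16 (R 4.3.3; TMM, filterByExpr, robust quasi-likelihood, Benjamini-Hochberg) at 0.05, transcripts with limma 3.58.1 on log2(TPM + 1) from a mean of 1 TPM, and shares of TPM with an exact two-sided permutation test over 35 splits. In the permutation test the one-sided p was doubled. The SE of a gene is its log2 fold change over the root of the quasi-likelihood F. The scripts were tested on simulated data with the gene means, depths and dispersions of these units. There, 18 of 50 genes set 2-fold higher and 8 of 48 set 2-fold lower were called. At 4-fold, 35 of 50 set higher and 30 of 50 set lower were called. A gene that missed the threshold is thus not shown to be unchanged. Shared sequence is the share of 31-base words found in another gene. Members and lists were chosen with earlier results of these data known. By the rule for names, all members are named, and up to 4 genes of each list with the smallest adjusted p; not all of the latter are given. DESeq2 1.42.0, other scalings and filters, offsets and left-out units were alternatives; the fits without both control unit 1 and talin KO unit 3 and with copies summed were added after seeing the data. Counts under edgeR's filter were left out.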

Additional observations from a re-analysis of the deposited data

Results flagged for a closer look

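Of 42 sets of 4 control values examined for a unit far from its group, 2 had one, and chance alone marks about 1 in 20 such sets. Hk3 was at 3.93 CPM in control unit 1, against 0.457 to 0.699 CPM in control units 2 to 4. The same unit had the highest sums of neutrophil, monocyte, B cell and dendritic cell markers among the control units (15.8, 192, 94.5 and 22.6 CPM). The erythroid and cytotoxic lymphocyte sums were instead highest in control unit 2 (96.2 and 41.4 CPM, against 69.8 and 35.4 CPM in control unit 1). The Aldoa share of aldolase TPM was 96.0% in control unit 1, against 97.7% to 98.0% in the other control units. The part of other cells in either value was not tested.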

How the results depend on the processing

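The number of genes called was 2144, and 3542 with the DESeq2 Wald test, 1153 with the GC and length offset, 450 with glmTreat against a fold of 1.5, 1327 without both control unit 1 and talin KO unit 3, and 758 to 1905 without 1 unit. Members called higher numbered 3, and 8, 0, 0 and 1 in the first 4 of these and 0 to 3 without 1 unit (0 without control unit 2 or 4 or talin KO unit 3). Members called lower numbered 1, and 3 with DESeq2, 2 without both units and 1 to 2 without 1 unit. Hif1a passed throughout. Among the alternatives, Hk2 passed in 12 of 22, Pfkl in 15 of 23 and Pfkfb4 in 11 of 23. The share of calls that were higher was 52.1%, and 39.0% at a mean of at least 10 CPM, 66.8% without both units and 79.3% with glmTreat. Member transcripts called numbered 4, and 2 with no TPM filter, 0 at a pseudocount of 0.1 and 0 to 4 without 1 unit.

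Between units of the same first title number, the correlations of deviations from the group means were 0.0275, -0.123 and -0.0543. These 3 values are too few to tell whether the numbers pair units, and the main fit used no pairing. With the replicate block 553 genes, 1 member higher (Pfkl) and 1 lower were called.

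Signs turned only near 0 or for uncalled genes. Slc2a3 was 0.40 with the effective-length offset. Aldoc was 0.00, and -0.01 with the DESeq2 test or size factors, -0.02 with voom, -0.16 with the GC offset, -0.30 with effective length, -0.29 with second number 2, -0.14 without both units and -0.11 to 0.12 without 1 unit. With the GC offset, Pgam1, Eno1 and Pkm were -0.04, -0.12 and -0.07. Without both units, Pgam1, Eno1, Ldha, Slc16a1 and Bpgm were -0.23, -0.04, -0.10, -0.04 and -0.01. The Eno1 share differed by -1.91 points in counts and -0.809 with transcripts of at least 500 bases. Without 1 unit, Pfkp ranged from -0.01 to 0.07, Pgam1 from -0.18 to 0.28 and Ldha from -0.01 to 0.22, and the share differences of Slc2a1 from -1.64 to 3.08, Hk2 from -0.917 to 1.37, Eno1 from -0.767 to 2.80 and Slc16a1 from -10.9 to 2.93 points. The causes were not tested.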

Other observations

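Of 19 tested regulators of Myc, mTOR, AMPK and glucose sensing, 3 rose and 1 fell in the talin KO units, where 7.07% of all genes tested were called higher and 6.52% lower. Arrdc4, a glucose-induced arrestin that removes glucose carriers from the membrane, was at 11.96, 11.6, 15.9 and 10.7 CPM across the control units and 4.83, 3.83 and 5.53 CPM in the talin KO units. It fell 2.66-fold (log2 fold change -1.41 ± 0.26, edgeR adjusted p = 0.00929), and was at -1.36 with the GC and length offset (adjusted p = 0.0164). Its relative Txnip, which answers to the same glucose sensor, was at 806 ± 188 CPM (SD, n = 4) and 740 ± 7.50 CPM (SD, n = 3) and had -0.12 ± 0.19 (adjusted p = 0.69). Tsc2, Stk11 and Mtor, encoding a brake, an upstream kinase and the kinase of growth control, rose 1.41-fold, 1.53-fold and 1.35-fold (adjusted p = 0.0344, 0.0441 and 0.0451). With the offset their log2 fold changes were 0.19, 0.24 and 0.15, with adjusted p of 0.213, 0.244 and 0.364. Myc itself was at 0.00 ± 0.19.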
